A study of Mus musculus with 16 samples.

Results

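The 4 libraries described here are RNA-seq profiles of mouse epidermis at week 25 of an ultraviolet B (UVB) experiment, 2 from exposed and 2 from unexposed skin, out of 16 libraries in the series. They were chosen by the week, tissue and agent in their column names, and no measured value entered the choice. All mice were female SKH-1. UVB mice received 60 mJ/cm2 in 2 sessions a week, for 2, 15 or 25 weeks depending on the group, and control mice received no agent. Each of the 8 groups in the series holds 2 libraries, numbered 0 and 1. The epidermis libraries of weeks 2 and 15 share the model and enter as comparison, and no test here compares the whole skin or skin tumor libraries of week 25. The labels do not state whether the paired libraries of a group represent different mice, so a p-value here reflects only library-to-library spread and that spread may be technical. The age of the mice and the time from the last exposure to sampling are not given either.

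As background, UVB is absorbed mostly in the epidermis, where it damages the DNA of keratinocytes, the cells that build the skin barrier. A single dose stabilises p53, halts the cell cycle and is followed by renewed division and a thicker epidermis. Repeated exposure adds chronic inflammation and in time papillomas and squamous cell carcinomas, for which the SKH-1 mouse is a standard model. This stock carries a mutated hairless gene, sheds its first coat and keeps abnormal follicles. Besides keratinocytes, mouse epidermis holds Langerhans cells, which present antigen, dendritic epidermal T cells, and the epithelium of hair follicles and sebaceous glands that comes off with the sheet.

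The 4 libraries held between 5657967 and 7175363 counts assigned to genes. Of 24421 genes in the table, 13478 had enough counts to be tested. Values below are CPM, counts divided by the scaled library size, listed as control 0, control 1, UVB 0 and UVB 1. Every ± after a log2 value is its standard error from the fit of the 12 epidermis libraries, with 2 libraries per arm. Correlations of log2 CPM across genes were 0.98 within each arm and 0.93 to 0.94 between the arms. Epidermal identity was clear in all 4 libraries. The 6 keratinocyte markers (Krt5, Krt14, Krt1, Krt10, Trp63 and Lor) summed to 2942, 2870, 2936 and 3323 CPM. The 6 fibroblast markers (Col1a1, Col1a2, Col3a1, Dcn, Lum and Pdgfra) summed to 6.24, 3.70, 141 and 34.3 CPM, against 552 and 1051 CPM in the 2 whole skin libraries. More dermal message was thus present in the UVB arm, most of it in UVB 0. In libraries of mixed cells, fewer cells of a type and less RNA per cell cannot be told apart.

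A rise or fall is called here at an adjusted p below 0.05 over all tested genes. By that rule 2898 genes (21.5%) changed at week 25, of which 1430 (10.6%) were higher and 1468 (10.9%) lower in UVB epidermis. The shares of 10.6% and 10.9% are those to set beside the counts of each gene list below. Rises were the larger changes. At least 2-fold, 1141 genes (8.47%) rose and 546 (4.05%) fell. The 2 UVB libraries lay entirely above the controls for 5004 genes (37.1%) and entirely below for 4507 (33.4%). The counts depend on having 4 libraries, since leaving out 1 at a time gave 331 to 625 rises and 188 to 418 falls.

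The falls were tied to gene length. In the longest quintile of tested genes (exons summing to 4750 bases or more) 26.74% of genes fell and 7.233% rose, and the median log2 fold change was -0.34. In the shortest quintile (1561 bases or less) 2.114% fell and 15.8% rose, with a median of 0.30. Both UVB libraries showed the gradient, with medians from 0.30 to -0.32 in UVB 0 and from 0.32 to -0.28 in UVB 1 relative to the mean control. No such gradient separated the 2 controls, whose ratio stayed at -0.01 in both end quintiles, or the 2 UVB libraries, at 0.01 and 0.02. It was flatter at week 15, from 0.12 to -0.14, and ran from -0.08 to -0.0044 at week 2. When the gradient was removed per library, 1198 genes rose and 784 fell, of which 1064 and 710 were among those called without the correction. The origin of the gradient was not tested. The length correction was chosen after seeing the data. Calls with it are given beside many lists of falls and some lists of rises below, and are not given for the others.

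**Figure D1:**
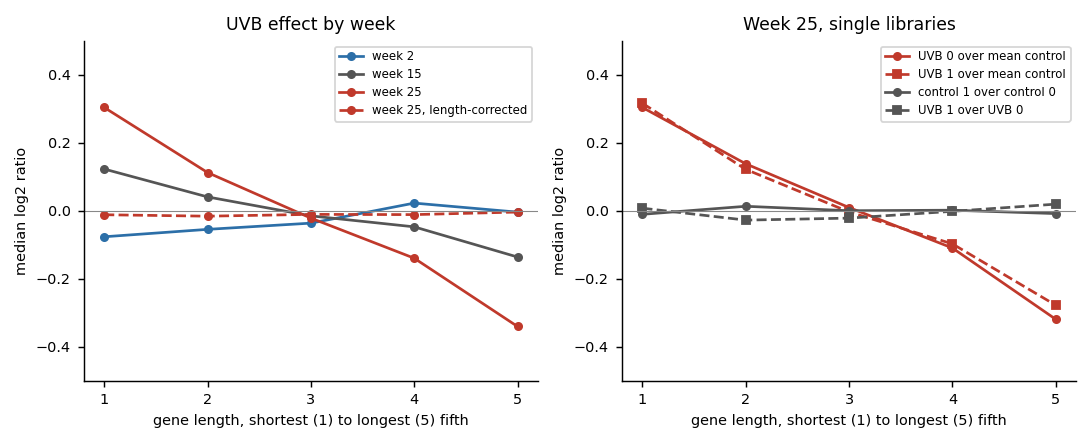
Median log2 ratio (vertical axis) of tested genes in 5 equal groups of exon length, shortest to longest (horizontal axis). Left, UVB over control at each week, with week 25 also after length correction (dashed). Right, single week 25 libraries against the mean control and replicates against each other. The week 25 line falls from 0.30 to -0.34, while the replicate ratios stay near 0.

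Abundant genes could move less than others. No gene exceeded 1.92 to 2.00 counts per base of exon in any week 25 library. Of 223 tested genes above 1 count per base, 5 rose and 0 fell, and their median log2 fold change was 0.02. Picard, a tool that can mark duplicate reads, is among the tools named in the submitters' processing notes, which give no role for it. Highly expressed genes such as Krt1, Krt10, B2m and H2-K1 lie in that range of counts per base, so a fold near 1 says little for them.

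The largest rises were a set of chemokines, cytokines and tissue remodelling genes that were near 0 in control epidermis. Ccl11, the eosinophil-attracting chemokine eotaxin, was listed at 0, 0, 13.7 and 22.2 CPM, at least 72.9-fold higher (floor of 3 counts over the control arm). Chil4, a chitinase-like protein of type 2 inflammation, measured 0.337, 0.462, 299 and 391.9 CPM, a log2 fold change of 9.64 ± 1.28 (adjusted p = 0.00213). The arms were far apart for both genes, and the lower UVB library was the same one, UVB 0. Chil4 shares much of its sequence with Chil3, which stood at 0, 0, 0.916 and 1.79 CPM, and how reads were split between them is not given in the sources used here.

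Other genes of this kind had 1 to 3 counts in the control arm, so their ratio of summed counts carries a wide 95% counting interval. Svep1, an adhesion protein of the extracellular matrix, was at 0, 0.154, 28.9 and 52.2 CPM (ratio 492, interval 87.8 to 19460). Ccl7, a monocyte chemokine, was at 0.169, 0, 28.7 and 42.7 CPM (ratio 436.5, interval 77.9 to 17280). Il19, an IL-20 family cytokine made by keratinocytes, was at 0.169, 0, 24.7 and 32.7 CPM (ratio 353, interval 62.9 to 13970). All 3 were abundant enough in UVB epidermis to be read from both libraries. Clec7a, the beta-glucan receptor Dectin-1 of myeloid cells, had 0.169, 0, 9.01 and 11.4 CPM (ratio 126, interval 22.1 to 5007). Fgl2 (ratio 103, interval 28.1 to 854), AI414108 (55.9, 18.8 to 274) and Ccl2, another monocyte chemokine (47.7, 15.99 to 234), also belong to this group. The intervals cover counting error only.

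Mmp13, a collagenase, measured 0.337, 0.770, 71.9 and 32.0 CPM (log2 6.45 ± 0.76, adjusted p = 0.00149), with UVB 0 above UVB 1. Cdhr1, a cadherin-related protein, measured 1.18, 0.770, 46.6 and 47.3 CPM (log2 5.54 ± 0.46, adjusted p = 0.000329), with nearly equal UVB libraries. All 12 of the largest rises stayed called when each week 25 library was left out in turn and after length correction.

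The largest falls were hair follicle genes and genes that differed between the 2 controls. Dsg4, the desmoglein of the hair cortex, measured 13.7, 5.70, 0.611 and 0.357 CPM (log2 -4.26 ± 1.19, adjusted p = 0.0295). Mrgprb2, a receptor known from connective tissue mast cells, measured 62.1, 7.24, 2.14 and 2.32 CPM (log2 -3.97 ± 0.91, adjusted p = 0.014). Rab11fip4, a regulator of vesicle recycling, measured 61.6, 25.9, 4.58 and 1.79 CPM (log2 -3.77). Control 0 was the highest library for each. Control 0 also led for Krt72 and Krt26, keratins of the inner root sheath, at 95.8, 50.5, 9.46 and 2.14 CPM and at 117, 44.2, 10.99 and 2.86 CPM. Tnfsf18, the ligand of the T cell receptor GITR, fell from 36.4 and 9.24 to 3.51 and 0.179 CPM. Zbtb16, the transcription factor PLZF, fell from 23.1 and 8.47 to 1.83 and 1.25 CPM (adjusted p = 0.00871). Nkd2, an inhibitor of WNT signalling, Lyg2, Fam26d, Krt83 and Krtap26-1 complete the 12, at log2 fold changes between -3.38 and -3.98.

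The rule that chose these genes required separate arms, so their separation is no result. The calls rested on all 4 libraries. Without control 0 all 12 falls lost their call, without UVB 1 all 12, without UVB 0 11 and without control 1 6. Length correction ended the call for 3 of them, Krt83, Fam26d and Lyg2.

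**Figure D2:**
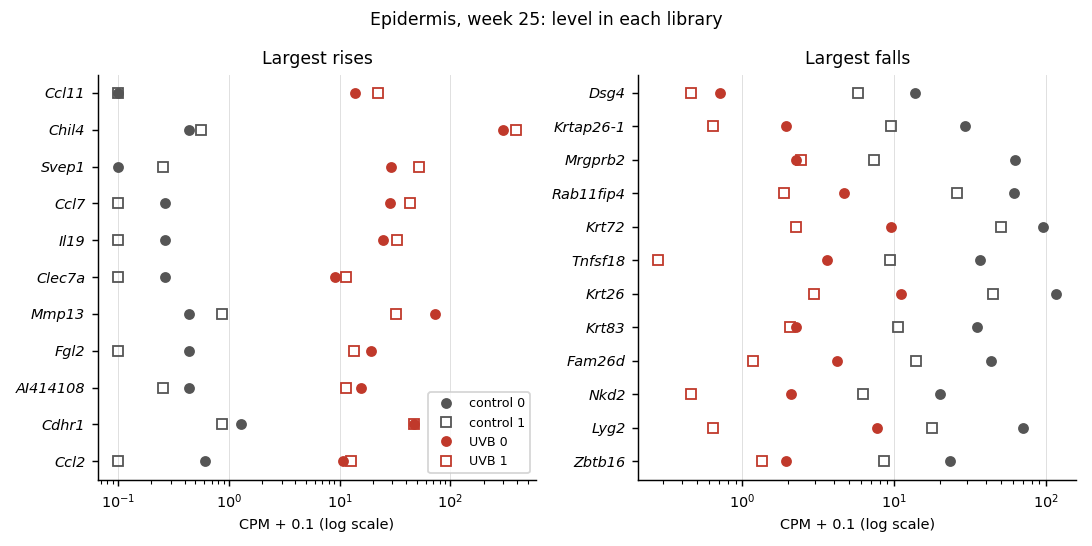
Level of 11 of the 12 largest rises (left) and the 12 largest falls (right) in each week 25 epidermis library, as CPM plus 0.1 on a log scale. Grey marks are controls and red marks UVB, with filled circles for library 0 and open squares for library 1. The genes were chosen to have separate arms, so the gap between red and grey marks restates that choice, and among the falls control 0 lies above control 1 throughout.

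The 8 abundant rises were of several kinds. Levels here are CPM per kilobase of exon, unless given as CPM. These genes were taken for their high counts per base, so the ceiling described above may limit their levels and folds. Sprr1b, a precursor of the cornified envelope, rose from 113 to 248, Rptn (repetin) from 81.4 to 198, Krt6a, a keratin of wounded epidermis, from 81.5 to 177, and Cd74, the MHC class II invariant chain, from 79.8 to 180. Ly6a (Sca-1), a surface protein of progenitor cells, rose from 73.2 to 186. Stfa2, a cystatin-like inhibitor of cathepsins, measured 11.8, 13.9, 91.6 and 102 CPM (log2 2.88 ± 0.18, adjusted p = 6.09e-05).

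Ccl8, a chemokine for monocytes and type 2 T cells, measured 9.11, 1.69, 114 and 137 CPM (log2 4.52 ± 0.90, adjusted p = 0.0082). With control 0, control 1, UVB 0 or UVB 1 left out, 4, 3, 5 and 5 of the 8 abundant rises lost their call. The 8 abundant falls included Cobl, an actin nucleator, Skint10, Card14, a keratinocyte activator of NF-kappaB, Kank1, Itpr3, an inositol trisphosphate receptor, Tmem95 and Chl1, an adhesion molecule. Chl1 fell from 89.1 to 44.6 CPM per kilobase (log2 -1.03 ± 0.17, adjusted p = 0.00414). The length correction ended the call for Sprr1b (adjusted p = 0.135), Cobl (0.078) and Itpr3 (0.0507), and 5, 4, 7 and 4 of the abundant falls were lost with those libraries left out in the same order.

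Cell division genes were raised. Of 30 genes of mitosis and its control, 18 rose and 0 fell, with a median log2 fold change of 1.40, against 0.01 over all genes tested. Birc5 (survivin), part of the complex that guides chromosomes, measured 9.11, 13.4, 47.6 and 44.7 CPM (log2 2.00 ± 0.40, adjusted p = 0.00815). Cdk1, the kinase that starts mitosis, measured 12.7, 12.5, 47.0 and 35.4 CPM (log2 1.69 ± 0.46, adjusted p = 0.0281). Both UVB libraries were well above both controls. The mitotic kinase Plk1 measured 1.86, 2.46, 12.1 and 9.82 CPM (log2 2.30 ± 0.58, adjusted p = 0.0205). Ccnb2, a partner cyclin of Cdk1, measured 6.58, 5.39, 23.5 and 19.5 CPM (log2 1.82 ± 0.41, adjusted p = 0.0141). Mki67, the Ki-67 antigen, measured 57.2, 56.7, 106 and 91.8 CPM and missed the threshold (log2 0.77 ± 0.26, adjusted p = 0.0587). Its transcript is long, and after length correction the log2 fold change was 1.33 (adjusted p = 0.01).

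Replication genes moved the same way in a smaller share. Of 30, 9 rose and 0 fell, with a median of 0.75. Rrm2, the ribonucleotide reductase subunit made in S phase, measured 30.2, 34.0, 83.0 and 66.1 CPM (log2 1.19 ± 0.18, adjusted p = 0.00341). Gins1 (log2 1.64 ± 0.28), Cdt1 (1.63 ± 0.32), Ccne1 (2.07 ± 0.43) and Mcm3 (1.34 ± 0.34), which license or fire replication origins or drive entry into S phase, also rose. With control 0, control 1, UVB 0 or UVB 1 left out, 1, 1, 0 and 5 division genes and 2, 3, 2 and 5 replication genes were called. After length correction 17 and 9 were called.

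Promoters of the division genes often held the hexamer TTTGAA, the core of the cell cycle homology region, which is known to repress such genes in resting cells. Read on both strands from 250 bases before to 50 bases after the RefSeq start (GRCm38.p6), it was present in 19 of 25 division genes with a promoter entry (76.0%), against 14.584% of tested genes. It was present in 11 of the 15 that rose. CCAAT was found in 21 of 25 (84.0%), against 42.194% of tested genes. The matches describe these windows and are not shown to be used. The stretches below, chosen because they belong to division genes named above, carry the hexamer in capitals and lie upstream of the start.
Ccnb2 (chr9:70421686-70421751, minus strand): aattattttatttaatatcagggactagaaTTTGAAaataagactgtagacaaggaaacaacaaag
Cdk1 (chr10:69352948-69353013, minus strand): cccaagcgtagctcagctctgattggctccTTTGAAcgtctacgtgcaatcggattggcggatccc
Mki67 (chr7:135716460-135716525, minus strand): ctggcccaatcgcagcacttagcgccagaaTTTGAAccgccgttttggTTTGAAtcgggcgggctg

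The interferon response rose in most of its measured genes. Type I and type II interferons act through STAT proteins to induce genes that sense, degrade or trap viral nucleic acid. Of 31 tested members 22 rose and 0 fell, with a median log2 fold change of 2.64. Members without a control count lie above that median at their lower bound as well. Oas3, which makes the oligoadenylate signal for RNA decay, measured 4.22, 4.31, 43.1 and 59.1 CPM (log2 3.55 ± 0.44, adjusted p = 0.00167). Mx2, a dynamin-like antiviral GTPase, measured 2.02, 0.616, 23.4 and 39.7 CPM (log2 4.54 ± 0.62, adjusted p = 0.00221). Oas2 measured 11.1, 2.77, 68.7 and 109 CPM (log2 3.66 ± 0.59, adjusted p = 0.00412). UVB 1 was the highest library for these 3 genes. Ifi44 (1.86, 0.154, 20.9 and 35.2 CPM) and Zbp1, a sensor of Z-form nucleic acid (2.87, 0.462, 26.3 and 32.7 CPM), rose by 4.78 ± 0.81 and 4.12 ± 0.84 on the log2 scale.

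Irf1, a transcription factor of the pathway, measured 37.5, 10.3, 80.3 and 82.7 CPM (log2 1.75 ± 0.52, adjusted p = 0.0376). Ifit2 and Ifit3b had no count in either control and were at least 18.4-fold and 14.0-fold higher. Ifit3 had 1 control count (ratio 76.7, interval 13.4 to 3068). Ifit3 and Ifit3b, and the members of the Oas1 cluster, are near-identical copies, so their separate values are uncertain. The controls themselves differed. Oasl2 was at 13.8 and 1.39 CPM and Isg15 at 73.7 and 18.02 CPM in control 0 and control 1, and Isg15, at 72.5 and 104 CPM under UVB, was not called (log2 0.91 ± 0.54, adjusted p = 0.244). Without control 0 there were 22 calls, and without control 1, UVB 0 or UVB 1 there were 8, 13 and 11. With the length correction there were 21.

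The interferon-stimulated response element, searched on both strands as 2 copies of GAAA separated by any 2 bases, was present in 13 of 22 list members with a promoter entry (59.091%), against 3.582% of tested genes. Among members that rose it was in 8 of 14. Windows of 3 that rose and of Isg15 are given because they span the range from a single to repeated elements, with matches in capitals.
Oas3 (chr5:120777695-120777764, minus strand): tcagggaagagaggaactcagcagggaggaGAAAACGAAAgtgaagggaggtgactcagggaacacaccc
Ifit3 (chr19:34583343-34583412, plus strand): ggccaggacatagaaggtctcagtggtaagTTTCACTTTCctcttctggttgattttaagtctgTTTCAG
Bst2 (chr8:71537563-71537632, minus strand): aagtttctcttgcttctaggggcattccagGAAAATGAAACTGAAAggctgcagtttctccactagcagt
Isg15 (chr4:156200857-156200926, minus strand): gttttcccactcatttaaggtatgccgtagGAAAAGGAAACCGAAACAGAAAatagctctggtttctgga
Bst2 and Isg15 hold overlapping matches, and in Ifit3 a second match runs past the end of the stretch shown. Bst2 (tetherin, which holds budding virus at the cell surface) measured 13.7, 4.004, 48.5 and 63.2 CPM (log2 2.64 ± 0.52, adjusted p = 0.00815).

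Of 15 members of MHC class I presentation 5 rose and 1 fell. The 5 were the immunoproteasome subunits Psmb8, Psmb9 and Psmb10 and the proteasome activators Psme1 and Psme2. Psmb10 measured 19.7, 16.2, 63.4 and 63.4 CPM (log2 1.79 ± 0.27, adjusted p = 0.00304) and was the only one called after length correction. Nlrc5, the class I transactivator, fell by 0.72 on the log2 scale (adjusted p = 0.0396), and was at -0.36 (adjusted p = 0.275) with that correction. Omitting 1 library left 1 to 3 rises and 0 falls. B2m and H2-K1 were at log2 0.03 ± 0.26 and 0.06 ± 0.24.

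**Figure D3:**
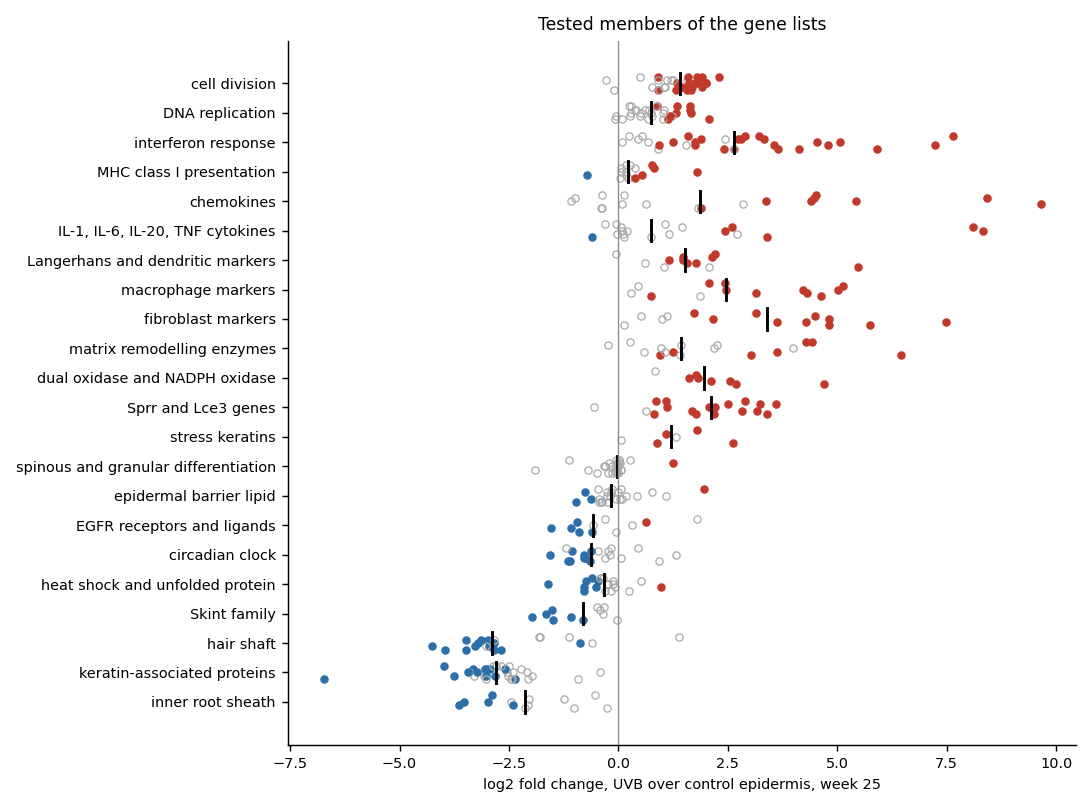
Log2 fold change at week 25 (horizontal axis, UVB over control) of each tested member of 22 gene lists (vertical axis). Filled red and blue points passed the test as higher and lower, open points did not, and black bars are list medians. The interferon response median lies at 2.64, cell division at 1.40 and hair shaft at -2.90.

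Of 18 chemokines 8 rose and 0 fell, and they fall into 2 functional sets. Ccl2, Ccl7, Ccl8 and Ccl11, given above, bind the receptors of monocytes and eosinophils. Cxcl9, Cxcl10 and Cxcl11 are interferon-induced ligands of CXCR3, the receptor of activated T cells. Cxcl10 measured 2.53, 0.462, 32.8 and 31.1 CPM (log2 4.40 ± 0.68, adjusted p = 0.00343). Cxcl9 measured 7.76, 1.08, 45.3 and 47.5 CPM (log2 3.38 ± 0.80, adjusted p = 0.0161). Both UVB libraries agreed closely, and the controls differed from each other. The eighth was Ccl27a, a keratinocyte chemokine for skin-homing T cells, at 7.93, 6.93, 30.2 and 26.1 CPM (log2 1.89 ± 0.34, adjusted p = 0.00585). Cxcl1, a neutrophil chemokine, was low in all 4 libraries (1.35, 0.308, 1.83 and 0.714 CPM). With control 1 left out 4 chemokines were called, and with any other library left out 6 or 7.

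Of 19 cytokines of the IL-1, IL-6, IL-20 and TNF families 5 rose and 1 fell. Il1b measured 1.69, 2.62, 22.3 and 24.5 CPM (log2 3.39 ± 0.33, adjusted p = 0.00072). Il33, an alarmin stored in keratinocyte nuclei, measured 21.9, 34.5, 176 and 172 CPM (log2 2.59 ± 0.36, adjusted p = 0.00227). Each pair of UVB libraries nearly coincided. Il24 was listed at 0, 0, 9.46 and 4.82 CPM, at least 30.3-fold higher, and Il19 and Tnfsf10 (TRAIL, log2 2.43 ± 0.54) complete the rises. Il1rn, the natural antagonist of the IL-1 receptor, fell from 334 and 320 to 205 and 233 CPM (log2 -0.61 ± 0.16, adjusted p = 0.0251).

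The type 2 list had 5 rises and 0 falls among 12. Beside Chil4 and Ccl11 these were Il4ra, the shared IL-4 and IL-13 receptor chain (113.5, 123, 259 and 229.5 CPM, log2 1.02 ± 0.19), Postn (periostin; 104, 64.1, 316 and 316 CPM, log2 1.88 ± 0.26) and Il1rl1. Il1rl1, the receptor for IL-33, had no control count and was at least 14.6-fold higher. Postn is made by keratinocytes as well as by fibroblasts, whose markers differed between the arms as given above.

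Of 17 genes of prostaglandin synthesis and breakdown 2 rose (11.76%, against 10.6% of all tested genes) and 0 fell. Ptgs2, the inducible cyclooxygenase COX-2, measured 4.55, 1.69, 29.2 and 19.3 CPM (log2 2.93 ± 0.61, adjusted p = 0.01). Hpgd, the enzyme that inactivates prostaglandins, measured 7.42, 8.47, 72.7 and 109 CPM (log2 3.48 ± 0.28, adjusted p = 0.000318). The synthesis enzyme and the breakdown enzyme were thus both higher in each UVB library than in each control.

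Markers of myeloid cells were higher in UVB epidermis. The 6 macrophage markers summed to 35.1, 32.5, 140 and 109 CPM. Of 13 tested macrophage genes 10 rose and 0 fell. Csf1r, the receptor that macrophages and Langerhans cells need to survive, measured 13.0, 11.9, 78.8 and 60.2 CPM (log2 2.46 ± 0.27, adjusted p = 0.00132). The complement genes C1qa (1.35, 2.16, 18.6 and 13.4 CPM), C1qb and C1qc rose, as did the scavenger receptor Cd163 (0.337, 0.154, 6.56 and 6.61 CPM) and the mannose receptor Mrc1. C1qb, C1qc, Cd163 and Mrc1 had 2 or 3 control counts, with ratios of 20.8 (interval 6.79 to 104), 40.9 (10.96 to 343.5), 27.3 (8.999 to 135) and 23 (6.01 to 196). Cd68 and Adgre1, also on the list, were at 17.7, 17.9, 21.98 and 22.5 CPM and at 2.53, 0.154, 7.17 and 2.68 CPM. Omitting control 0, control 1, UVB 0 or UVB 1 gave 6, 3, 3 and 8 calls.

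Langerhans and dendritic cell genes rose with antigen presentation by MHC class II, at 8 of 12 with 0 falls. Cd207, the lectin langerin that defines Langerhans cells, measured 28.0, 13.9, 82.0 and 64.7 CPM (log2 1.78 ± 0.42, adjusted p = 0.0165). H2-Ab1, a class II chain, measured 73.4, 52.2, 181 and 174 CPM (log2 1.47 ± 0.31, adjusted p = 0.0104). Ciita, the class II transactivator, measured 3.71, 3.39, 16.5 and 15.7 CPM (log2 2.15 ± 0.30, adjusted p = 0.0024). Both UVB libraries exceeded both controls for each of these genes. Itgax (log2 2.21 ± 0.46) and Flt3, with 1 control count (ratio 57.2, interval 9.86 to 2301), rose too. Epcam, which Langerhans cells share with follicle epithelium, was not called (298, 271, 253 and 307 CPM). There was 1 call without control 1, 3 without UVB 0 and 7 without either of the others.

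Suppressive and checkpoint genes rose for 4 of 12. Cd86, the costimulatory ligand of CD28 and CTLA-4, measured 5.40, 4.16, 39.2 and 31.6 CPM (log2 2.86 ± 0.35, adjusted p = 0.00157). Havcr2 (TIM-3) rose by 2.03 ± 0.45 and Lgals9, one of its proposed ligands, by 1.82 ± 0.44 on the log2 scale. Il10 was listed at 0, 0, 2.29 and 3.22 CPM, at least 11.2-fold higher. Cd274 (PD-L1) was at 34.8, 19.4, 27.2 and 26.3 CPM (log2 -0.05 ± 0.29, adjusted p = 0.928), and Ctla4 at 9.11, 2.77, 9.31 and 9.65 CPM (adjusted p = 0.475). Without control 1 there was 1 call.

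T cell genes gave a mixed picture. The 5 T cell markers in the table summed to 49.3, 26.0, 40.3 and 36.4 CPM, so the arms overlapped. Of 10 T and NK cell genes 3 rose, namely Cd4 and the granzymes Gzma and Gzmb, all at 4 CPM or less, and none of the 3 was called once any week 25 library was left out. Cd7, which marks dendritic epidermal T cells among others, fell from 18.7 and 12.0 to 4.89 and 6.43 CPM (log2 -1.47 ± 0.42, adjusted p = 0.0313). On the same list Klrk1 (NKG2D) and Gzmc rose, by 1.68 ± 0.49 and 1.80 ± 0.53. Klrk1 and Cd7 lost their call under each of the 4 omissions, and Gzmc under each except that of control 0. Cd7 was also lost with the replicate block and Gzmc with length correction.

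The Skint genes fell. These immunoglobulin-like proteins of keratinocytes are known through Skint1, which selects dendritic epidermal T cells in the thymus. Of 11 members 6 fell and 0 rose, with a median log2 fold change of -0.81. Skint5 measured 305.5, 247, 70.8 and 72.2 CPM (log2 -1.98 ± 0.41, adjusted p = 0.00946), Skint6 312, 306, 95.6 and 104 CPM (-1.66 ± 0.31) and Skint4 223, 218, 81.1 and 79.1 CPM (-1.49 ± 0.23, adjusted p = 0.00345). The libraries of each arm were close to each other. Skint7, Skint9 and Skint10 fell as well, and all 6 were called after length correction. The family members resemble each other in sequence, which makes their separate values uncertain. Between 1 and 5 were called when a library was left out, fewest without UVB 0.

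Neutrophil genes rose through S100a8 and S100a9, which keratinocytes also make, Mmp9 and Trem1, 4 of 6 in all. With control 0, control 1, UVB 0 or UVB 1 left out 0, 2, 0 and 2 were called, after length correction 2 and with all 16 libraries 1. The list gene Cxcr2 overlapped between the arms, at 40.2, 75.3, 54.8 and 60.4 CPM. The neutrophil receptor Csf3r was at 0 in both controls and at 0.305 and 0.536 CPM under UVB. Mast cell markers were near 0 in every library, summing to between 1.35 and 4.12 CPM. Of 3 tested mast cell and basophil genes 1 rose and 1, Mrgprb2, fell. Melanocyte markers summed to 4.11 to 9.55 CPM with overlapping arms, and skeletal muscle markers to 38.6, 30.03, 40.6 and 39.1 CPM. Of their 5 and 16 tested genes 0 were called. Endothelial markers were low throughout, at 1.69, 1.08, 6.26 and 5.001 CPM.

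**Figure D4:**
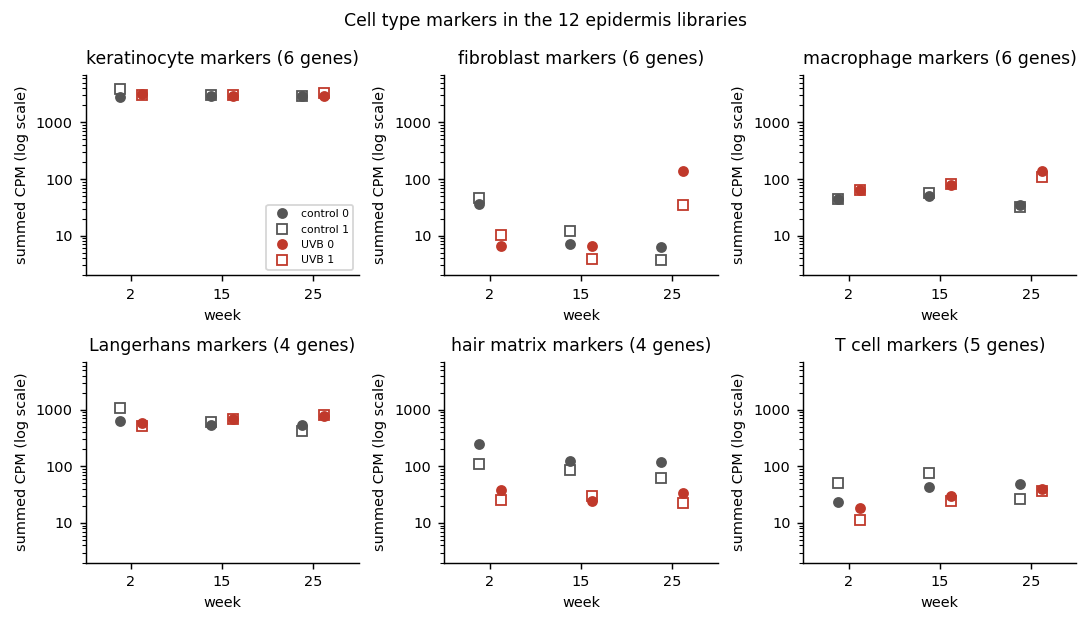
Summed CPM of the marker genes of 6 cell types (vertical axis, log scale) in the 12 epidermis libraries by week (horizontal axis). Grey marks are controls and red marks UVB, circles library 0 and squares library 1. At week 25 the macrophage sum is 109 to 140 CPM under UVB against 32.5 to 35.1 CPM, the fibroblast sum is highest in UVB 0 at 141 CPM, and the keratinocyte sums lie together.

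Dermal genes rose in the UVB arm in unequal amounts. Of 14 fibroblast and matrix genes 10 rose and 0 fell. Col1a2 measured 2.02, 0.924, 47.2 and 11.8 CPM (log2 4.30 ± 0.77, adjusted p = 0.00585) and Col3a1 2.02, 0.308, 55.0 and 11.3 CPM (log2 4.81 ± 0.88, adjusted p = 0.00629). UVB 0 was above UVB 1, and UVB 1 above both controls. Lum had 1 control count and 8.396 and 2.68 CPM under UVB, while Pdgfra was flat at 0.675, 0.924, 0.611 and 1.43 CPM. With UVB 0 left out 1 member was called, with UVB 1 left out 8, with control 0 left out 4 and with control 1 left out 1. The part of dermal cells in the changes of other genes was not tested.

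Matrix-degrading enzymes rose beside them, 7 of 17 with 0 falls. Tnc (tenascin-C), a matrix protein of healing and tumor stroma on this list, measured 8.94, 8.93, 123 and 102 CPM (log2 3.63 ± 0.50, adjusted p = 0.00227). Mmp9, a gelatinase, measured 5.57, 5.54, 76.0 and 15.9 CPM (log2 3.02 ± 0.60, adjusted p = 0.00815). Mmp3 (stromelysin-1) measured 1.01, 0.924, 30.5 and 8.75 CPM (log2 4.29 ± 0.78, adjusted p = 0.00614). Mmp9 and Mmp3 thus followed the fibroblast genes in being highest in UVB 0, and Tnc was nearly even. Mmp12, the macrophage elastase, measured 0.506, 0.154, 8.85 and 6.25 CPM (log2 4.43 ± 0.75), and Mmp14, a membrane protease that activates others, 22.4, 15.9, 46.7 and 45.9 CPM (log2 1.25 ± 0.29). Without UVB 0 there were 4 calls, without control 1 there were 3. The AP-1 heptamer TGACTCA was present in 5 of 12 promoters of the list (41.667%), against 5.197% of tested genes.

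Keratins 6 and 16 are made by keratinocytes of wounded or stressed epidermis. Of 6 stress keratins 4 rose, and 1, 4, 2 and 1 did with control 0, control 1, UVB 0 or UVB 1 left out. Krt6a measured 155, 212.5, 367 and 433 CPM (log2 1.09 ± 0.25, adjusted p = 0.0137), Krt16 182.5, 243, 361 and 438 CPM (log2 0.88 ± 0.17, adjusted p = 0.00734) and Krt6b 48.4, 187, 388 and 451 CPM (log2 1.81 ± 0.51, adjusted p = 0.03). Krt7, a keratin of simple epithelia, measured 2.53, 2.62, 10.7 and 22.2 CPM (log2 2.63 ± 0.41). Krt17, usually induced with Krt6 and Krt16, was not called, at 445, 388, 410 and 473 CPM (log2 0.06 ± 0.21, adjusted p = 0.878). Of the 6 tested genes 4 exceeded 0.4 counts per base, so the ceiling described above may limit their folds.

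The small proline rich and late cornified envelope genes of group 3, which are switched on in injured and psoriatic skin, rose for 16 of 18, with a median log2 fold change of 2.12. Lce3a measured 1.86, 5.70, 33.6 and 48.4 CPM (log2 3.39 ± 0.60, adjusted p = 0.00575) and Sprr2a3 7.09, 13.2, 114 and 138 CPM (log2 3.59 ± 0.63, adjusted p = 0.00554). Control 1 was above control 0 and UVB 1 above UVB 0 for both. Transcripts of these families are short and some are close copies of each other, so the separate values of those members are uncertain. After length correction 10 rose, and when control 0, control 1, UVB 0 or UVB 1 was left out 4, 11, 8 and 7 did. With all 16 libraries in 1 fit only 3 did.

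Protease inhibitors of the epidermis rose for 6 of 20, and 6 were called whichever library was left out, but 3 with all 16 libraries in 1 fit. Spink7, a Kazal-type inhibitor, measured 0.843, 4.47, 38.9 and 62.5 CPM (log2 4.19 ± 0.51, adjusted p = 0.00157). Serpinb1a, an inhibitor of neutrophil proteases, measured 5.90, 14.9, 87.2 and 82.0 CPM (log2 2.98 ± 0.43, adjusted p = 0.00256). Stfa2, Stfa1, Spink12 and Serpinb6c were the others, and serpins and stefins of the mouse have close copies. Among S100 and antimicrobial genes 6 of 17 rose, and 1 to 4 did with a library left out, fewest without UVB 0. S100a8 and S100a9, the calprotectin subunits, rose by 0.92 ± 0.17 and 0.85 ± 0.17. Both are very short, and with length correction they stood at 0.46 (adjusted p = 0.121) and 0.40 (0.165). Slpi, an inhibitor of leukocyte elastase, rose from 20.8 and 14.9 to 73.1 and 62.9 CPM and was called with and without the length correction.

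Of 28 genes of spinous and granular differentiation, Rptn alone rose and none fell. Of these, 25 exceeded 0.4 counts per base, close to the ceiling described above. Ivl (involucrin) measured 430.5, 410, 211 and 321 CPM (log2 -0.69 ± 0.28, adjusted p = 0.101). Of 13 basal keratinocyte genes 2 rose (15.38%, against 10.6% of all tested genes) and 0 fell. One of them, the integrin chain Itgb1, measured 50.4, 35.9, 176 and 99.7 CPM, highest in UVB 0, and was not called without control 0, control 1 or UVB 0.

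Gap junction genes led the rises among 23 junction genes, of which 4 rose and 1 fell (2 and 0 without control 0 or UVB 0). Gjb6 (connexin 30) measured 39.3, 56.2, 205 and 244 CPM (log2 2.20 ± 0.26, adjusted p = 0.0015) and Gjb2 (connexin 26) 115, 140, 352 and 401 CPM (log2 1.53 ± 0.20, adjusted p = 0.00178). The cadherins Cdh3 (35.4, 27.1, 113 and 66.1 CPM) and Dsc2 (20.1, 15.1, 68.7 and 38.6 CPM) rose, with UVB 0 highest. Ocln, a tight junction protein, fell from 156 and 127 to 60.9 and 61.1 CPM (log2 -1.24 ± 0.24, adjusted p = 0.00748). Among 24 barrier lipid genes Degs2, which makes phytoceramides, rose from 27.0 and 45.3 to 123 and 164 CPM, and Alox12b, Abca12 and Pnpla1 fell. That is 4.167% rises and 12.5% falls, against 10.6% and 10.9% of all tested genes. Abca12, the long transporter of lamellar granules, went from 1162 and 1154 to 532 and 667 CPM (log2 -0.98 ± 0.27), and its length-corrected change was -0.52 (adjusted p = 0.204). Of the 3 falls of barrier lipid genes 1 was called after length correction, and 0 when any 1 library was left out.

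Genes of regulated oxidant production rose for 7 of 8. Duox1, the peroxide-making oxidase of epithelia, measured 11.5, 21.9, 48.1 and 72.5 CPM (log2 1.82 ± 0.37, adjusted p = 0.00936), and its maturation factor Duoxa1 18.6, 25.6, 71.7 and 82.3 CPM (log2 1.77 ± 0.22, adjusted p = 0.00169). Cyba, a membrane subunit of the phagocyte NADPH oxidase, measured 0.675, 0.308, 14.0 and 12.9 CPM (log2 4.71 ± 0.71), and the cytosolic subunit Ncf4 6.58, 3.70, 24.0 and 21.3 CPM (log2 2.11 ± 0.37). The phagocyte subunits moved with the macrophage markers given above. With 1 library left out there were 4 or 5 calls.

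Single genes of vitamin A handling changed in both directions. Lrat, which esterifies retinol for storage, measured 13.3, 16.02, 72.2 and 79.1 CPM (log2 2.33 ± 0.34), and Aldh1a3, which makes retinoic acid, 7.25, 8.16, 42.0 and 50.4 CPM (log2 2.55 ± 0.62). Cyp26b1, which degrades retinoic acid, fell from 202 and 209.5 to 45.2 and 43.8 CPM (log2 -2.24 ± 0.33, adjusted p = 0.00282). Dhrs9, a retinol dehydrogenase, fell from 119 and 129.5 to 42.7 and 62.3 CPM (log2 -1.27 ± 0.18). In all 3 of 15 genes rose (20%) and 2 fell (13.33%), against 10.6% and 10.9% of all tested genes. These 5 were called after length correction as well.

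Hair follicle genes fell together. Of 20 hair shaft genes 13 fell and 0 rose (median -2.90), of 33 keratin-associated proteins 13 fell and 0 rose (median -2.79), and of 13 inner root sheath genes 5 fell and 0 rose. After length correction 11, 14 and 4 fell. Krt86, a keratin of the hair cortex, measured 94.0, 38.5, 10.8 and 2.68 CPM (log2 -3.28 ± 0.80, adjusted p = 0.0181). Tchh (trichohyalin), which hardens the inner root sheath, measured 744, 413, 166 and 57.3 CPM (log2 -2.40 ± 0.67, adjusted p = 0.0293). Control 0 was above control 1 and UVB 0 above UVB 1 in both. The transcription factor Hoxc13 changed less, from 41.3 and 37.0 to 22.6 and 20.9 CPM (log2 -0.87 ± 0.23).

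These calls rested on all 4 libraries. With control 0 or UVB 1 left out 0 hair shaft genes and 0 keratin-associated proteins were called, with control 1 left out 3 and 7, and with UVB 0 left out 1 and 3. No inner root sheath gene was called under any of the 4 omissions. With the replicate block 27 keratin-associated proteins fell, and with no filter on low counts 27 also did and 10 inner root sheath genes. Some keratin-associated proteins are close copies of each other, which makes the separate values of those members uncertain. Of 22 sebaceous gland genes 1 rose and 1 fell. Scd1 stood at 559, 531, 534 and 411 CPM.

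Of 29 targets of p53, the damage-induced transcription factor, 4 rose and 3 fell, and 0 rose when any 1 library was left out. Cdkn1a (p21), its best known target, measured 340, 330, 293 and 323 CPM (log2 -0.15 ± 0.14, adjusted p = 0.482), and Mdm2, its inhibitor, 144, 136, 125 and 158 CPM (log2 -0.02 ± 0.16). Pmaip1 (Noxa), Fas, Gtse1 and Ckap2 rose, and of these Gtse1 and Ckap2 are also genes of dividing cells. Zmat3, Plk2 and Rrm2b fell, and with length correction none of these falls was called. The shares of p53 targets that rose (13.79%) and fell (10.34%) lie near the 10.6% and 10.9% of all tested genes. Excision repair and translesion genes showed 0 rises and 4 falls of 28 (14.29%, against 10.9% of all tested genes). Ercc2, Ercc6, Polh and Rev3l fell by 0.63 to 1.01 on the log2 scale, and Polh (47.4, 54.2, 33.0 and 28.6 CPM), the polymerase that copies past UV dimers, was the only one called after length correction. Polh was not called with the replicate block, with all 16 libraries or when any 1 library of week 25 was left out.

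The machinery of DNA methylation is of interest because the wider study also profiled methylation. Of 18 genes 1 rose and 4 fell, of which 0 falls were called after length correction. Dnmt3l, a cofactor of new methylation known mainly from germ cells, measured 0.506, 0.924, 16.3 and 13.2 CPM (log2 4.29 ± 0.42, adjusted p = 0.00072). Dnmt3a, the methyltransferase it assists, fell from 70.9 and 89.2 to 37.7 and 31.8 CPM (log2 -1.23 ± 0.22, adjusted p = 0.00614). Both arms were separate for the pair. The Dnmt3a transcript is long, and its length-corrected change was -0.67 (adjusted p = 0.0559). Tet3 (log2 -0.85 ± 0.19) lost its call under that correction, at -0.24. Dnmt1 measured 136, 165, 117 and 125 CPM (log2 -0.34 ± 0.17, adjusted p = 0.17).

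Genes of the EGF receptor family were mostly lower. Of 11 receptors and ligands 1 rose and 5 fell. Egfr measured 228, 233, 118 and 127 CPM (log2 -0.94 ± 0.16, adjusted p = 0.00552; length-corrected -0.61, adjusted p = 0.0186). Erbb3 measured 312, 348, 139 and 177 CPM (log2 -1.09 ± 0.21, adjusted p = 0.00737). The receptor Erbb2 and the ligands Btc (betacellulin; 265, 193, 83.4 and 77.7 CPM) and Tgfa also fell, while the ligand Hbegf rose from 87.9 and 73.5 to 117 and 139 CPM (adjusted p = 0.0484). With length correction Egfr, Erbb3 and Btc were called and Hbegf was not. Leaving out 1 library gave 0 to 2 falls, with 0 when UVB 0 was left out.

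Among WNT, hedgehog and NOTCH genes 3 rose and 3 fell of 24 (12.5% each), near the 10.6% and 10.9% of all tested genes. The WNT antagonists Sfrp1 (29.4, 19.4, 85.5 and 75.6 CPM, log2 1.70 ± 0.33) and Dkk3 (log2 2.09 ± 0.58) and the hedgehog effector Gli2 rose. Wnt7b (216, 217, 121 and 132 CPM, log2 -0.80 ± 0.15), Notch2 and Notch3 fell, and the receptors, both long, were not called after length correction. Without UVB 0 none of the 6 was called. Of 20 immediate early genes 0 rose and 2 (10%) fell, Egr2 and Dusp5, against 10.6% and 10.9% of all tested genes. Egr2 was not called after length correction or with the replicate block. Fos, at 158, 122, 246 and 253 CPM, did not pass (adjusted p = 0.136). Of 24 hypoxia and glycolysis genes the glucose transporter Slc2a1 (90.9, 105, 244 and 232 CPM, log2 1.25 ± 0.27), the lactate transporter Slc16a3 (log2 2.21 ± 0.52) and Vegfa rose, and Pfkfb3 fell (141, 124, 37.1 and 68.2 CPM). That is 12.5% rises and 4.167% falls. With control 0, control 1, UVB 0 or UVB 1 left out 0, 1, 0 and 2 of this list rose.

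Of 29 antioxidant genes 5 rose and 4 fell, or 17.24% and 13.79%, near the shares of all tested genes (10.6% and 10.9%). Nqo1 (5.06, 4.77, 15.4 and 14.7 CPM, log2 1.58 ± 0.30) and Gclm (16.2, 16.02, 38.9 and 43.4 CPM, log2 1.32 ± 0.26), textbook targets of NRF2, rose, while catalase (Cat; 193, 198, 117 and 103 CPM, log2 -0.86 ± 0.15) and the extracellular dismutase Sod3 (123, 123.5, 37.7 and 45.5 CPM, log2 -1.60 ± 0.34) fell. Hmox1 was at 306, 226, 224 and 255 CPM (adjusted p = 0.687). After length correction 2 rises and 4 falls were called, and with 1 library left out 0 to 2 rises and 1 or 2 falls.

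Chaperone genes fell for 7 of 20, and 1 rose. Hsph1, a cytosolic chaperone, measured 277, 212, 95.9 and 66.3 CPM (log2 -1.62 ± 0.23, adjusted p = 0.00267). Herpud1, which serves protein disposal at the endoplasmic reticulum, measured 229, 233, 139 and 136 CPM (log2 -0.78 ± 0.12, adjusted p = 0.00386). Hspa5, Hspa1a, Hsp90aa1, Hsp90b1 and Dnaja1 fell by 0.48 to 0.78 on the log2 scale. With length correction 5 fell, and with 1 library left out 2 or 3 fell and 0 rose.

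Circadian clock genes fell for 9 of 19 and rose for 0, with a median of -0.63. Cry1, a repressor arm of the clock, measured 108, 87.9, 46.4 and 44.3 CPM (log2 -1.14 ± 0.17, adjusted p = 0.00304). Arntl (BMAL1), the activator arm, measured 108, 103, 47.2 and 52.7 CPM (log2 -1.11 ± 0.21, adjusted p = 0.00754). Per3, Cry2, Dbp, Tef, Hlf and Rora also fell. Activator and repressor genes, which peak at different hours, were thus lower together. The labels give a 12 h light and dark cycle but no hour of sampling. After length correction 4 were called, and with 1 library left out 1 to 3.

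The effect of 25 weeks was then set against that of 2 weeks and 15 weeks, each with its own controls. At week 2, 2403 genes (17.8%) changed, 1090 up (8.09%) and 1313 down (9.74%). At week 15 there were 471 (3.49%), 250 up (1.85%) and 221 down (1.64%). Of the 1430 rises at week 25, 326 were also rises at week 2, which is 22.8% of the first list and 29.91% of the second. For week 15 the shared number was 214, or 14.97% and 85.6%. Of the 1468 falls, 313 fell at week 2 (21.32% and 23.84%) and 142 at week 15 (9.673% and 64.25%). Called at neither earlier week were 1012 rises (70.77%) and 1130 falls (76.98%). A gene called at 1 week and not another is not shown to differ, so the difference of the effects was tested.

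Between weeks 25 and 2 the UVB effect differed for 1067 genes (7.92%), more positive at week 25 for 449 (3.33%) and more negative for 618 (4.59%). Between weeks 25 and 15 edgeR called 0 genes (0%). At an unadjusted p under 0.05 there were 1315, and DESeq2 called 24 more positive and 39 more negative. The smallest p-values of that second test belonged to Ago2, Trpv4, Banp, Hsph1, Cry1 and Mmp13, with adjusted p between 0.179 and 0.202.

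Interferon genes were among those that differed from week 2. At week 2, 0 of the 31 had risen, at week 15, 13 had. The median log2 effect was -0.36 at week 2, 2.66 at week 15 and 2.64 at week 25. The effect was more positive at week 25 than at week 2 for Oas1g, Oas2, Oas3, Mx1, Mx2, Stat2, Ddx58 and Dhx58, 8 in all. For Oas3 the difference was 3.48 ± 0.82 on the log2 scale (adjusted p = 0.0302). Il1b (2.42 ± 0.45, adjusted p = 0.015), Ccl7, Ccl27a and Hpgd differed in the same direction, as did Chil4, by 11.11 ± 1.54 (adjusted p = 0.00831). The log2 effect on Chil4 was -1.47 at week 2 and 8.75 at week 15.

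The same was true of genes of antigen presentation, macrophages and matrix. Csf1r (difference 2.22 ± 0.39, adjusted p = 0.0138), C1qa, Lyz2 and Gpnmb, the class II genes Cd74, H2-Aa, H2-Ab1, H2-Eb1 and Ciita, the NADPH oxidase subunits Cyba, Ncf1 and Ncf4, and Mmp9, Mmp10, Mmp12, Mmp13, Mmp14 and Timp1 all had a more positive effect at week 25. For Mmp13 the difference was 6.82 ± 1.14 (adjusted p = 0.0125). Fibroblast markers moved the same way for 9 genes. Their 6-gene sum was 36.1 and 45.3 CPM in the week 2 controls and 6.59 and 10.2 CPM under UVB at week 2, the reverse order of week 25. The part of this in the matrix result was not tested.

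Other effects were more negative at week 25. They included Egfr (difference -1.31, adjusted p = 0.0138), Erbb3, Ereg and Epgn, the clock genes Clock, Per2 and Cry1, the chaperone genes Hsph1 and Herpud1, and the p53 targets Ccng1, Eda2r, Zmat3 and Polk. Eda2r, a p53-induced receptor for ectodysplasin, had a log2 effect of 4.46 at week 2, 1.98 at week 15 and -0.04 at week 25. All these values are without length correction, under which 296 differences were more negative, against 618. Length-corrected differences of the single genes are not given here.

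Division, protease inhibitor and follicle lists held few called differences between the weeks. Division genes rose for 28 of 30 at week 2, hair shaft genes fell for 18 of 20, keratin-associated proteins for 33 of 33 and inner root sheath genes for 13 of 13. Among protease inhibitors 10 rose at week 2 and 6 at week 25. The median effect on division genes was 2.32 at week 2, 1.34 at week 15 and 1.40 at week 25, and 0 of them differed between weeks 25 and 2. A difference was called for 1 gene each of the protease inhibitor, hair shaft and inner root sheath lists and for 0 for the keratin-associated proteins. Over all tested genes the share was 7.92%. The median effect at weeks 2 and 25 was -4.57 and -2.90 for hair shaft genes and -5.43 and -2.79 for keratin-associated proteins. For inner root sheath genes it was -3.62 and -2.14, so all 3 follicle medians were smaller at week 25. Of the Skint genes 6 fell at week 2 and 6 at week 25, and 0 differed between these weeks.

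**Figure D5:**
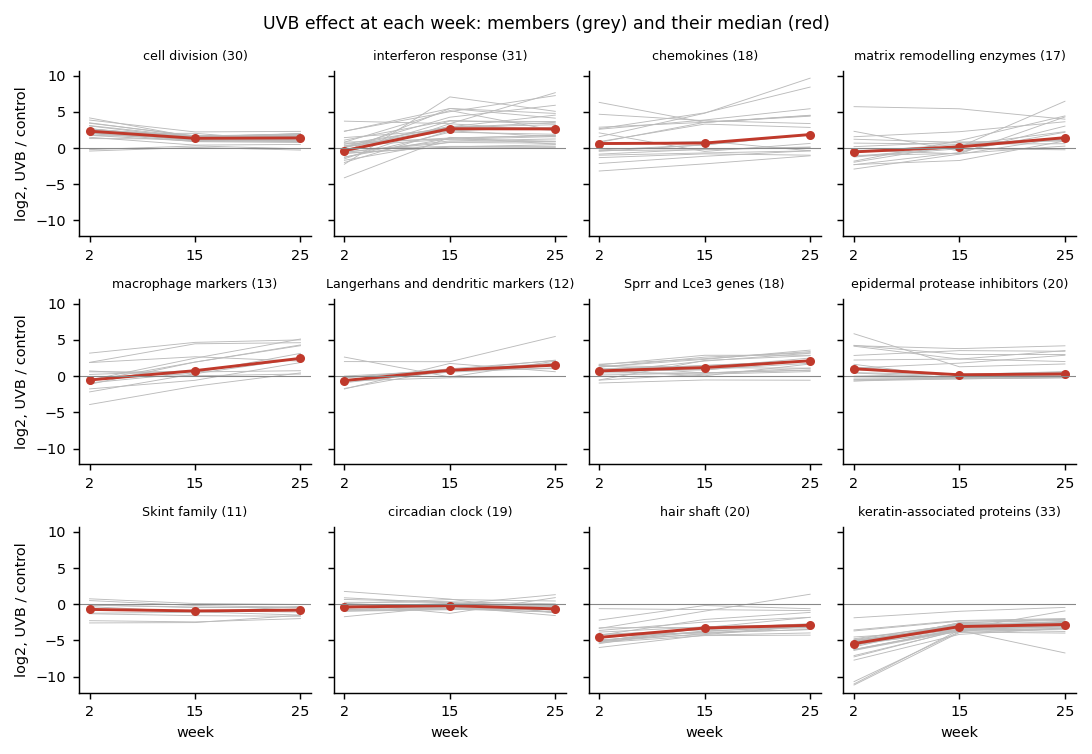
Log2 UVB effect (vertical axis) at weeks 2, 15 and 25 (horizontal axis) for 12 gene lists, with each tested member in grey and the list median in red. The interferon median is -0.36, 2.66 and 2.64 at weeks 2, 15 and 25, and the cell division median is 2.32, 1.34 and 1.40.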

How the data were processed

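Per the submitters' processing notes, reads were processed with HISAT2, Picard, featureCounts and DESeq2 against mm10, without versions or settings. The deposited values are raw gene counts from featureCounts with an exon length per gene, per the file headers. Neither strand nor multimapping settings, nor the annotation release, could be read from the labels or headers. RNA came from a Qiagen Allprep kit and was sequenced on an Illumina instrument, per the labels.

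Counts of the 12 epidermis libraries were fitted with edgeR 4.0.16 (R 4.3.3) by the quasi-likelihood F test, TMM scaling and filterByExpr (minimum count 10), with 6 group terms and 6 residual degrees of freedom. Contrasts were UVB against control at each week and the differences of week 25 from weeks 2 and 15. P-values were adjusted by Benjamini-Hochberg over 13478 genes. Standard errors are the log2 fold change divided by the square root of F. The biological coefficient of variation was 19.05%. Per-gene CPM use TMM sizes of all 16 libraries. The fits were tested on simulated counts with the same biological coefficient of variation for every gene. Those counts had no length gradient and no ceiling per base, so that test does not cover either.

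Replicates of an arm differed by far more than sampling noise (chi-square per degree of freedom 7.02 and 7.00). Each was counted as 1 sample, though this spread cannot tell separate mice from technical repeats. Genes named are the 12 largest rises and falls with at least 5 CPM and separate arms, the 8 most abundant per length with at least a 2-fold change in each direction, the top 5 by p and the most abundant gene of each list, other list members where useful, and the top 6 of each difference; some of these are not reported here. The members and lists were chosen with earlier results of these data known. Alternatives were other scalings, filters, sets of libraries, DESeq2 1.42.0, a replicate block, leaving out each library, and, chosen after seeing the data, a length correction and a crossed block. Promoter sequences are from RefSeq, build GRCm38.p6, matched by symbol for 10217 of the tested genes.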

Additional observations from a re-analysis of the deposited data

Results flagged for a closer look

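For 6 genes the UVB effect at week 25 differed from that at week 2 and had the opposite direction or was lost, by edgeR's test of the difference. They are the 6 smallest p-values of that test among genes with at least 5 CPM. The differences below are without length correction, under which more negative differences numbered 296 against 618. Values are CPM of control 0, control 1, UVB 0 and UVB 1.

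Ago2, the slicing Argonaute of RNA interference, measured 20.4, 16.9, 51.2 and 64.8 at week 2, 44.4, 46.03, 49.7 and 55.8 at week 15, and 100.2, 125, 36.6 and 35.5 at week 25. The log2 difference was -3.26 (adjusted p = 0.00121). The controls were highest and the UVB libraries lowest at week 25, and the difference between the controls of the weeks was not tested.

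Zbed6, a repressor of Igf2, measured 21.5, 11.4, 66.05 and 70.7 at week 2 and 107, 120, 29.2 and 40.9 at week 25, a difference of -3.69 (adjusted p = 0.00211). It lies within Zc3h11a, so reads of these overlapping genes cannot be told apart.

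Dhrs9, the retinol dehydrogenase, measured 43.9, 37.3, 98.2 and 95.8 at week 2 and 119, 129.5, 42.7 and 62.3 at week 25 (difference -2.49). Lnpep, an aminopeptidase of peptide hormones, measured 23.4, 27.1, 35 and 33.3 at week 2 and 97.7, 93.02, 21.5 and 23.8 at week 25 (-2.52). Nav3, a microtubule-binding protein, measured 5.90, 3.81, 26.2 and 19.96 at week 2 and 31.04, 31.7, 5.19 and 7.86 at week 25 (-4.46). The difference between the controls of the weeks was not tested for these 3.

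Eda2r measured 2.85, 5.50, 81.9 and 92.5 at week 2, 6.71, 9.98, 32.8 and 34.3 at week 15, and 11.6, 16.02, 10.8 and 16.8 at week 25 (difference -4.50). The UVB libraries stood above the controls at weeks 2 and 15 and overlapped them at week 25. The adjusted p for Dhrs9, Lnpep, Nav3 and Eda2r was 0.00495.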

How the results depend on the processing

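The counts of calls depended on the libraries in the fit. With only the 4 libraries of week 25 in the fit, 2233 genes rose and 2329 fell. With all 16 libraries 692 fell. With length correction 784 fell. Leaving out 1 week 25 library gave 331 to 625 rises and 188 to 418 falls, the fewest without UVB 0, and it assumes that the lone library of an arm varies like the other groups. The other scalings, filters, DESeq2 and the replicate block kept both counts within 1.5 times the 1430 and 1468 reported. Of the genes the naming rule takes that passed, 204 in all, 168 were called with length correction and 77 to 121 with 1 library left out.

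For week 25 minus week 2 (449 more positive, 618 more negative), no filter gave 790 more positive, only the compared libraries 296, all 16 libraries 289 and 228, DESeq2 782 and 976, and the length correction 296 more negative. Leaving out 1 library gave 22 to 271 and 63 to 266, fewest without control 1. For week 25 minus week 15 (0 and 0), no filter gave 10 and 5, DESeq2 24 and 39, and leaving out 1 library 0 to 1 more positive.

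The replicate block gave 1161 rises and 1116 falls at week 25, 224 and 244 differences from week 2, and 1 more positive difference from week 15. Libraries with the same number correlated in their deviations at 0.24 at week 25, -0.03 at week 15 and -0.12 at week 2. The labels do not say whether the numbers are a pairing, and these values do not settle it. With the week 2 numbers crossed, the differences from week 2 were 430 and 526. The causes of these shifts were not tested. The depth, 5657967 to 7175363 counts per library, limits genes at 0 to 3 control counts, and the ceiling per base limits abundant genes.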

Other observations

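Several genes that rose in UVB epidermis at week 25 also separated the 2 libraries of week 25 whole skin controls, which entered no test here beyond the fits over all 16 libraries. Values are CPM of whole skin control 0, whole skin control 1 and the 2 skin tumor libraries of UVB mice, for genes chosen after their values were seen. Chil4 measured 0.310, 315.6, 326 and 341. Mmp13 measured 6.09, 181, 271 and 192. Cdhr1 measured 2.48, 39.6, 83.9 and 85.3. Stfa2 measured 1.75, 74.04, 80.98 and 83.6. Krt6b measured 22.4, 303.5, 323 and 338. Il19 measured 0, 41.8, 77.2 and 80.99. The library labelled whole skin control 1 was nearer to the tumor libraries than to whole skin control 0 for Chil4, Mmp13, Stfa2, Krt6b and Il19, and lay between them for Cdhr1. The 2 epidermis controls of week 25 were at 1.18 CPM or less for Chil4, Mmp13, Cdhr1 and Il19. Fits over all 16 libraries, which include this pair, gave 3 rises among the 18 small proline rich and late cornified envelope genes against 16.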
